A study of Homo sapiens with 6 samples.

Results

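The 4 HOX gene clusters of the human genome were examined for where ubiquitylated H2A.Z and total H2A.Z were found in HEK293T, a cell line long kept in culture that derives from human embryonic kidney. The peaks of the 2 forms were merged where they overlapped or touched, and a merged region belonged to a cluster when its hg19 midpoint lay within chr7:27100000-27280000 (HOXA), chr17:46580000-46830000 (HOXB), chr12:54310000-54470000 (HOXC) or chr2:176930000-177080000 (HOXD). This gave 227 of 198179 regions, with 58 in HOXA, 77 in HOXB, 52 in HOXC and 40 in HOXD. The direction of any difference played no part in the choice. RefSeq places the 38 listed genes on chromosomes 7, 17, 12 and 2, as the windows have them, but their hg19 positions within the windows were not analysed here.

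In all 6 samples the cells had been transfected with plasmids for H2A.Z-1 fused at its C-terminus to Flag and the biotin ligase BirA, and for ubiquitin fused at its N-terminus to the AviTag, at 3 parts to 1. They were collected 48 hours later, and chromatin was cut with micrococcal nuclease for 30 minutes. Streptavidin recovered nucleosomes with biotinylated Avi-ubiquitin (ubiquitylated H2A.Z, 2 samples), Flag M2 agarose recovered all nucleosomes with the tagged histone (total H2A.Z, 2 samples), and an H3 antibody gave the control (2 samples). The tagged histone came from transient transfection, so the peaks are those of the fusion protein and not of the cell's own H2A.Z. Streptavidin binds far more tightly than an antibody, and an effect of the reagent cannot be told apart from one of ubiquitin. The lists give no read counts, so depth is unknown. How far replicates differed is seen only in the irreproducible discovery rate of the authors (IDR, low where a peak was found alike in both replicates) and in their false discovery rate (FDR), and nothing in the labels says that replicates were separate cultures. Wilson 95% intervals on shares cover counting error only, and neighbouring regions are not independent.

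HOX genes encode homeodomain transcription factors that give cells their position along the body axis. Within each cluster they are transcribed in an order along the axis that follows their order on the chromosome, and in cells that do not use them they are kept silent by Polycomb complexes. The histone variant H2A.Z takes the place of H2A in nucleosomes at promoters and other regulatory sites, and its C-terminal lysines can carry a single ubiquitin placed by RING1B, the ligase of Polycomb repressive complex PRC1.

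By RefSeq order, coordinates increase from HOXA2 to HOXA13 and from HOXB1 to HOXB13, but from HOXC13 to HOXC4 and from HOXD13 to HOXD1. Genes of paralogue group 13 act in the hindmost and most distal structures, such as the digits for HOXA13 and HOXD13, the hair follicle for HOXC13 and the prostate for HOXB13, whereas HOXA2 patterns the second pharyngeal arch. The promoter table of RefSeq (GRCh38.p14) held 27 entries for 20 of the 38 genes, 26 of them distinct in the 250 bases before the start site. These held a median of 20 CpG dinucleotides (quartiles 11 and 26, range 0 to 40), against 11 (quartiles 3.0 and 23) over 35116 promoters. The letters TATAAA, on either strand, occurred in 5 of the 26 (19.2%), 4 of them from HOXA, and in 10.7% of all promoters. Of the 26, 16 were from HOXA, 7 of these from HOXA3, 8 were from HOXD, and HOXB and HOXC gave 1 each. These values thus describe mostly HOXA and HOXD. For a view of the start sites at both ends of a cluster, the 250 bases before the start are given for HOXA and HOXD, the clusters in which both outermost listed genes had an entry, from the strand of the gene and with each CpG in capitals. They are chr7:27102684-27102933 (minus strand, 8 CpG) for HOXA2, chr7:27200092-27200341 (minus strand, 40 CpG) for HOXA13, chr2:176092471-176092720 (plus strand, 21 CpG) for HOXD13 and chr2:176188418-176188667 (plus strand, 31 CpG) for HOXD1, all on GRCh38.p14. Those positions cannot be set against the hg19 positions of the H2A.Z regions, so none of these promoters is tied to a region here.
HOXA2: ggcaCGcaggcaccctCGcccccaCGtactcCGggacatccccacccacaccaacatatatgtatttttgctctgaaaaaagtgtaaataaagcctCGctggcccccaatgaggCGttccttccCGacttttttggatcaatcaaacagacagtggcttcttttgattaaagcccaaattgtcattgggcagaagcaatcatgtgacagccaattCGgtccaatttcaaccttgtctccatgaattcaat
HOXA13: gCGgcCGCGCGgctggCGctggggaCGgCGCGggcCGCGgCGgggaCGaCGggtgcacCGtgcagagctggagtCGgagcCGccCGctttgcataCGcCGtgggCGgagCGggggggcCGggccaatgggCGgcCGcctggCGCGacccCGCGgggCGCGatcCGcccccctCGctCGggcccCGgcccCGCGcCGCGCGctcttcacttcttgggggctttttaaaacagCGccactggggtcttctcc
HOXD13: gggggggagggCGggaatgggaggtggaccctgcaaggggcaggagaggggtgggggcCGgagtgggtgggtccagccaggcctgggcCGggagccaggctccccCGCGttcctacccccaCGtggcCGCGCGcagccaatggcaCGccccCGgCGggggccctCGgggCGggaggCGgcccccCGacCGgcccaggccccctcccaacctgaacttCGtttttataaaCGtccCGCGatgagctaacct
HOXD1: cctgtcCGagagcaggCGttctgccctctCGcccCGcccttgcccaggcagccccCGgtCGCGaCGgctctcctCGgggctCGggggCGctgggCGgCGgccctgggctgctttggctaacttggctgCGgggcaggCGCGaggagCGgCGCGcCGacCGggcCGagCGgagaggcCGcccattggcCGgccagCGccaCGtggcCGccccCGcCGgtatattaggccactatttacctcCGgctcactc
The HOXA2 sequence has few CpG, while HOXA13, HOXD13 and HOXD1 are dense in them.

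The first comparison asked how H2A.Z was spread over the clusters and the DNA beside them. All 4 clusters stood as dense islands of H2A.Z. They held 30.7 regions per 100 kb, compared with 7.05 in the 500 kb on either side, and regions covered 13.6% of the windows and 2.43% of the flanks. HOXA (32.2 per 100 kb), HOXB (30.8), HOXC (32.5) and HOXD (26.7) were close to each other in density. Their surroundings were not: the flanks held 14.3 regions per 100 kb around HOXB, 7.80 around HOXC, 4.0 around HOXA and 2.10 around HOXD. The window exceeded its flanks 12.7 times in HOXD, 8.06 times in HOXA, 4.17 times in HOXC and 2.15 times in HOXB. The windows were drawn around gene clusters and the flanks were not, so this contrast describes the sites and was not tested.

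**Figure D1:**
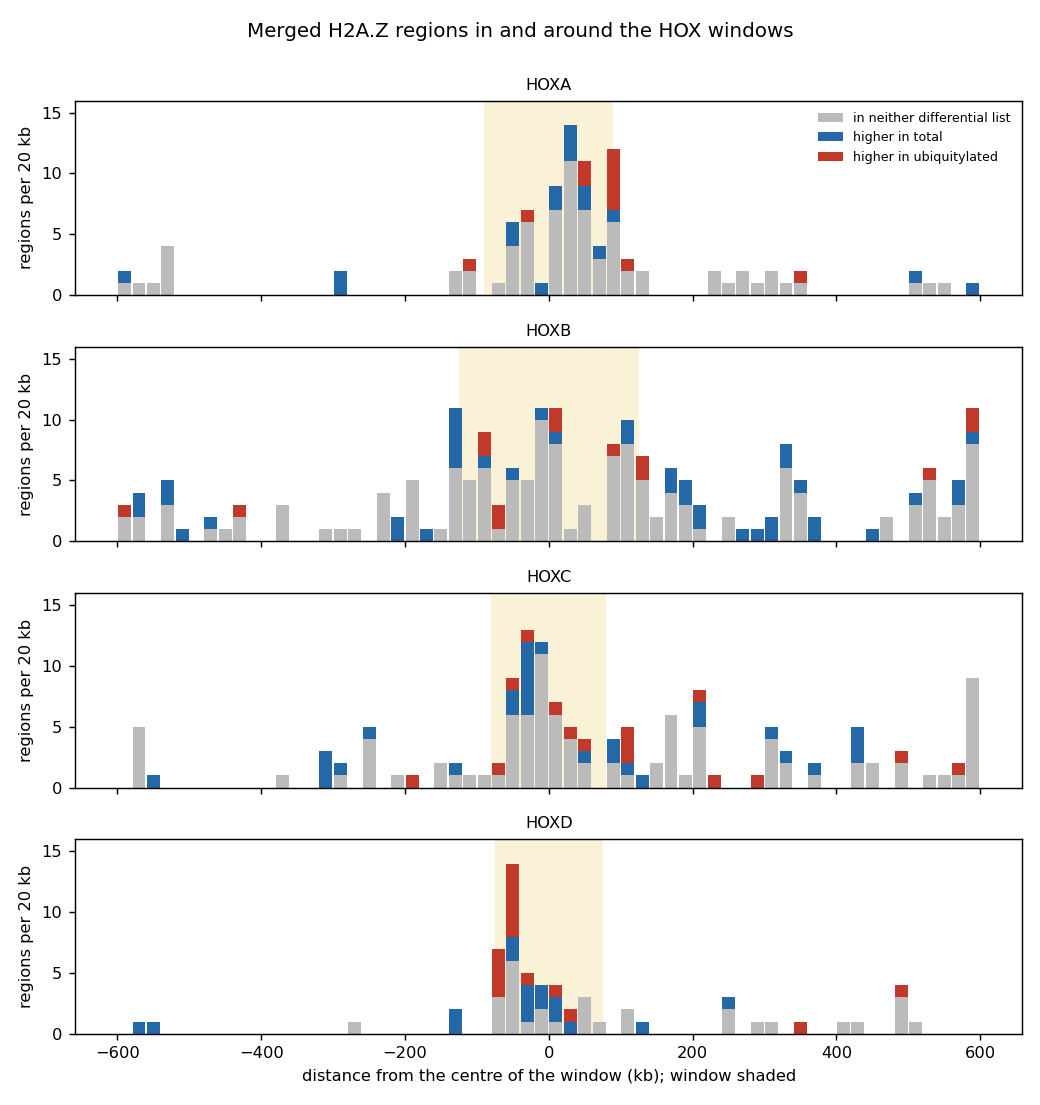
Merged H2A.Z regions per 20 kb (y axis) against distance from the centre of each window in kb (x axis), coloured by the differential list of the authors that holds them (blue higher in total, red higher in ubiquitylated H2A.Z, grey in neither), with the window shaded. The regions crowd into the windows, most sharply in HOXD, where the window holds 26.7 regions per 100 kb and its flanks 2.10.

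Within a window, regions lay close together. The median gap between one region and the next was 731 bp in HOXD, 796 bp in HOXA, 893 bp in HOXC and 1520 bp in HOXB, against 2161 bp over all regions. Each cluster also had a stretch without any region. The longest was 40020 bp in HOXB (chr17:46755920-46795939), followed by 20690 bp in HOXD (chr2:176972234-176992923), 19651 bp in HOXA (chr7:27255254-27274904) and 11045 bp in HOXC (chr12:54429558-54440602). By RefSeq order the last listed gene along HOXB is HOXB13, which stands apart from the rest of its cluster, and the HOXB stretch was followed by 22 regions in the last 50 kb of the window.

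The boundaries of the windows did not all fall in empty DNA. Measured to midpoints, the next region on the low side of HOXD lay 62.5 kb beyond the edge, whereas at the high edge of HOXB the last region inside was 0.488 kb from it and the next outside 0.252 kb. At the high edge of HOXA the last region inside, chr7:27279763-27280225, straddled the edge, and the next lay 2.69 kb beyond.

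Regions in the clusters were somewhat wider than elsewhere, with a median of 356 bp (95% interval of the median 329 to 377 bp) against 313 bp over all regions. HOXD stood highest with 490 bp (429 to 576 bp), followed by HOXA with 361 bp (314 to 409 bp), HOXC with 316 bp (278 to 375 bp) and HOXB with 315 bp (300 to 370 bp). The interval of HOXD did not overlap those of the other clusters, and those of HOXA, HOXB and HOXC overlapped each other. Regions of at least 1 kb numbered 16 of 227 (7.05%), against 4.92% of all regions, and 6 of them lay in HOXD. The widest were chr12:54344378-54346525 in HOXC (2148 bp), chr2:177052889-177054337 in HOXD (1449 bp), chr7:27252772-27254021 in HOXA (1250 bp) and chr17:46723290-46724422 in HOXB (1133 bp). All 4 held peaks of both lists and were in neither list of differential regions.

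The clusters differed in which form of H2A.Z gave the peaks. Of the 227 regions, 86 held peaks of both lists (37.9%, Wilson 95% interval 31.8 to 44.3%), 54 of the ubiquitylated list alone and 87 of the total list alone. Over all regions 41.9% held peaks of both, and in the flanks 27.3%. HOXA and HOXC leaned to total H2A.Z, with 30 of 58 and 25 of 52 regions from the total list alone and 11 and 5 from the ubiquitylated list alone. In HOXB the single-list regions were balanced, at 25 ubiquitylated and 23 total, and in HOXD they were 13 and 9. Peaks numbered 29 ubiquitylated and 47 total in HOXA, 28 and 49 in HOXC, 54 and 54 in HOXB, and 32 and 27 in HOXD. Over all regions the ratio of ubiquitylated to total peaks was 0.999, and it was 0.571 in HOXC, 0.617 in HOXA, 1.00 in HOXB and 1.19 in HOXD. In the flanks it was 0.515 around HOXC, 1.41 around HOXA, 0.528 around HOXB and 0.562 around HOXD. The lean of HOXC was thus shared by its surroundings, and that of HOXA was not. In bases, the 2 lists shared 37.2 kb of the 101 kb they covered together in the clusters. This is a Jaccard index of 0.369, against 0.418 over all regions and 0.270 in the flanks.

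The IDR of a peak is the authors' own value and is used here only to rank peaks within a list. In HOXD the ubiquitylated peak with the lowest IDR was chr2:177065671-177066116 (1.59e-07), the last region at the HOXD1 end of the window, and in HOXB it was chr17:46797056-46797706 (3.81e-07), on the far side of the long empty stretch. Among peaks of total H2A.Z, the lowest IDR of each cluster was at chr7:27237985-27238434 in HOXA (1.31e-05), chr17:46755349-46755919 in HOXB (1.42e-05), chr2:176945239-176946063 in HOXD (4.16e-05) and chr12:54348735-54348995 in HOXC (3.33e-04). The ubiquitylated peaks in HOXA and HOXC with the lowest IDR were chr7:27163811-27164172 (7.24e-06) and chr12:54321236-54322273 (1.27e-05). Both of these lay in regions that were also called higher in ubiquitylated H2A.Z. In regions with peaks of one list alone, the median IDR of ubiquitylated peaks was 0.00454 in the clusters and 0.00226 over all regions, and that of total H2A.Z peaks was 0.00235 and 0.00403.

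The next comparison asked where the ubiquitylated form was higher or lower than total H2A.Z. The authors' deposited table called a region differential at an FDR of at most 0.05 and gave the change of ubiquitylated relative to total H2A.Z, read here as log2. In the HOX clusters 30 regions were higher in ubiquitylated H2A.Z (13.2%, Wilson 9.42 to 18.2%) and 39 in total H2A.Z (17.2%, 12.8 to 22.6%). Over all regions the shares were 9.39% and 12.1%, and in the flanks they were 8.87% (6.08 to 12.8%) and 24.5% (19.8 to 29.8%). The share towards total H2A.Z was thus above that of all regions but below that of the flanks. Together 69 of 227 regions were called (30.4%), against 21.5% over all regions and 33.3% of the 282 regions in the flanks. The remaining 158 regions had no fold change in the lists, and nothing can be said of how far they differed. The 30 and 39 regions had medians of 0.73 and -0.72 on the log2 scale of the authors' deposited table, where all called regions had 0.68 and -0.76. At an FDR under 0.01 there were 18 of the 227 (5.16% of all regions) and 22 (7.09% of all regions). Changes of at least 2-fold were found in 6 of the 227 (1.47% of all regions) and 4 (2.39% of all regions).

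The shares called differed most between HOXD and the rest. HOXD had 23 of 40 regions called (57.5%), HOXC 16 of 52 (30.8%), HOXA 15 of 58 (25.9%) and HOXB 15 of 77 (19.5%). Towards ubiquitylated H2A.Z, HOXD had 13 (32.5%, Wilson 20.1 to 48.0%), HOXC 6 (11.5%, 5.40 to 23.0%), HOXB 8 (10.4%, 5.36 to 19.2%) and HOXA 3 (5.17%, 1.77 to 14.1%). Towards total H2A.Z, HOXD had 10 of its 40 (14.2 to 40.2%), HOXA 12 (20.7%, 12.3 to 32.8%), HOXC 10 (19.2%, 10.8 to 31.9%) and HOXB 7 (9.09%, 4.47 to 17.6%). HOXD thus ranked first in both directions, and HOXA had 4 calls towards total H2A.Z for each one towards ubiquitylated H2A.Z. Of the 15 HOXA calls 20.0% were towards ubiquitylated H2A.Z (Wilson 7.05 to 45.2%). That interval includes the 43.7% over all called regions. Only the ubiquitylated share of HOXD had an interval apart from that of another cluster in its own direction, namely HOXA and HOXB. No difference between clusters was tested. The HOXA and HOXD counts also turned on where the windows ended: widened by 50 kb on each side, HOXA had 10 calls towards ubiquitylated H2A.Z, and narrowed by 20 kb, HOXD had 7. At an FDR under 0.01 HOXC had 7 of 52 towards total H2A.Z and HOXD 5 of 40, and at 2-fold or more HOXD had 0 in both directions.

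**Figure D2:**
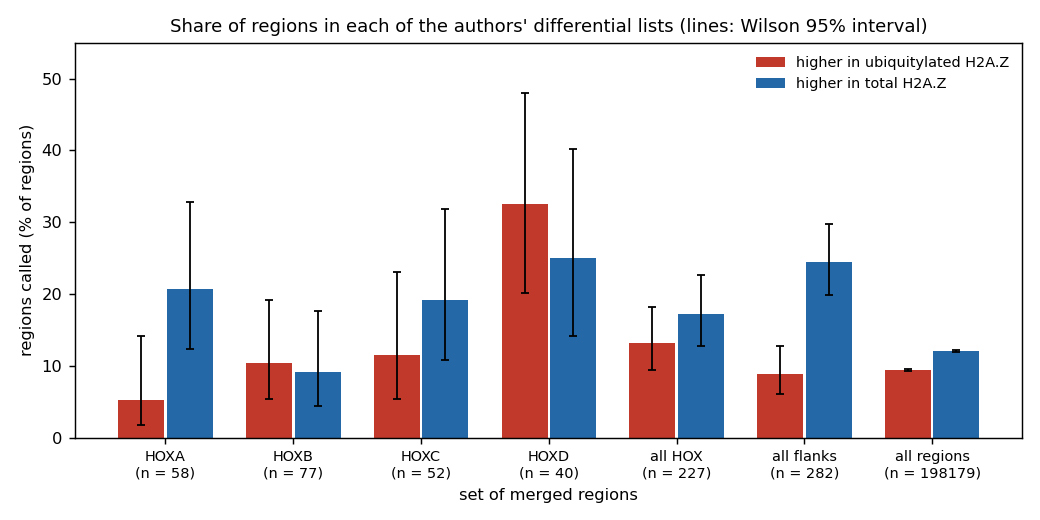
Percent of regions (y axis) that the authors' deposited table calls higher in ubiquitylated (red) or total (blue) H2A.Z, for each HOX cluster, all 4 clusters, their flanks of 500 kb and all regions (x axis, with the number of regions). Bars show the share and lines the Wilson 95% interval, which covers counting error only. HOXD stands highest in both directions, at 13 and 10 of its 40 regions.

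Wide regions were called more often over the genome, and HOXD regions were wide, so width moves with the HOXD share. Its part in that share was not tested. Over all regions the share called was 14.0% under 300 bp, 22.2% from 300 to 500 bp and 35.1% at 500 bp or more. In HOXD it was 2 of 6, 8 of 15 (53.3%, Wilson 30.1 to 75.2%) and 13 of 19 (68.4%, 46.0 to 84.6%) in the same classes. From 300 to 500 bp the share was 10 of 28 in HOXA (35.7%), 9 of 28 in HOXB (32.1%), 7 of 20 in HOXC and 47.2% in the flanks, all above that of all regions. At 500 bp or more it was 2 of 13 in HOXA, 5 of 20 in HOXB, 4 of 10 in HOXC and 48.6% in the flanks. HOXD was thus above all regions in each class of width, although the first class held 6 regions.

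**Figure D3:**
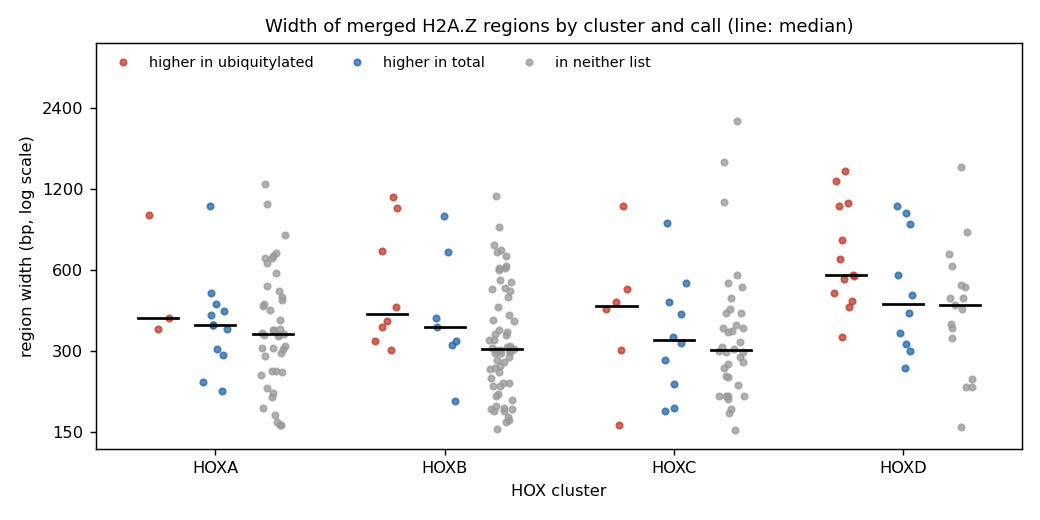
Width of each merged region in bp (y axis, log scale) by cluster and by call (x axis), with 1 point per region and a line at the median. HOXD regions higher in ubiquitylated H2A.Z have a median of 576 bp, the highest of the groups shown.

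Calls mostly fell on regions that held a peak of one list. Of the 54 regions with ubiquitylated peaks alone, 21 were higher in ubiquitylated H2A.Z (38.9%, against 23.8% over all such regions) and 0 went the other way (0.127% over all such regions). The 87 regions where total H2A.Z alone gave a peak included 32 called towards it (36.8%, against 30.5%) and 0 called against it (0.0831%). Where both lists had peaks, 9 of 86 were called towards ubiquitylated H2A.Z (10.5%, against 5.97%) and 7 towards total H2A.Z (8.14%, against 7.52%). The peak lists and the calls come from the same libraries, so the match of peak and direction is no separate evidence.

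In HOXD calls towards ubiquitylated H2A.Z were most numerous on the low side of the window, as were the regions themselves. From 30 to 60 kb and from 90 to 120 kb calls of both directions occurred. From 60 to 90 kb there were 2 calls, both towards total H2A.Z. The first 30 kb held 18 regions, with 8 of the 13 HOXD calls towards ubiquitylated H2A.Z, followed there by 1 towards total H2A.Z. The first 60 kb held 26 regions, with 11 of the 13 and 5 of the 10 calls towards total H2A.Z. Between 30 and 60 kb there were 8 regions, with 3 calls towards ubiquitylated and 4 towards total H2A.Z. The first 30 kb are at the end of the window that HOXD13 faces by RefSeq order. In that order the next protein-coding gene past HOXD13 is EVX2, another homeobox gene. Whether EVX2 lies inside the window was not analysed here. Which gene each region lies at was not analysed here. The 8 came first along the window, over chr2:176931557-176951104 (19.5 kb). Further on, 7 of the last 14 regions were called, 2 towards ubiquitylated and 5 towards total H2A.Z, and none of the 4 regions in the last 30 kb, the HOXD1 end, was in either list.

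The HOXD regions higher in ubiquitylated H2A.Z with the lowest FDR were wide. The authors' deposited table gave chr2:177024058-177025344, 1287 bp with a ubiquitylated peak alone, a log2 fold change of 0.83 (FDR 2.2e-06). Next in the authors' deposited table came chr2:176964424-176965820 (1397 bp, peaks of both lists) at 0.74 (FDR 2.1e-05) and chr2:176947664-176948442 (779 bp) at 0.82 (FDR 3.1e-05). The other 3 of the 6 lowest in FDR in that direction, from the authors' deposited table, were chr2:177042468-177043501 (0.69, FDR 0.00036), chr2:176932321-176932891 (0.74, FDR 0.0014) and chr2:176931557-176932216 (0.67, FDR 0.0049). All 13 were modest in size, from 0.47 to 0.83 in the authors' deposited table, and none reached 2-fold.

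Of the 10 HOXD regions higher in total H2A.Z, 7 stood in one series. This series ran over chr2:176969166-177023326 (54.2 kb) with none in the other direction. Its strongest member in the authors' deposited table was chr2:177000936-177001917, 982 bp wide, at -0.77 (FDR 2.9e-05). Also in the series were chr2:177022066-177022640 (-0.74, FDR 0.0005) and chr2:176969166-176970058 (-0.64, FDR 0.00054), from the authors' deposited table. Outside it the authors' deposited table held chr2:177039355-177040396 (-0.63, FDR 0.00024), chr2:176962610-176962958 (-0.89, FDR 0.0019) and chr2:176953521-176953780 (-0.95, FDR 0.012). The last of these, 260 bp wide, was the one in the first 30 kb.

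HOXA had 12 calls towards total and 3 towards ubiquitylated H2A.Z. All called regions also leaned towards total H2A.Z, with 23960 against 18614. Each of the 3 HOXA calls towards ubiquitylated H2A.Z stood alone between calls of the other direction. In the authors' deposited table they were chr7:27231574-27231970 (log2 fold change 1.15, FDR 0.00012), chr7:27244360-27245320 (0.68, FDR 0.00023) and chr7:27163811-27164172 (0.99, FDR 0.00038). The stretch from 108 to 144 kb of the window was the densest of 5 equal stretches, with 23 regions, 14 of them from the total list alone. It held 5 calls towards total and 1 towards ubiquitylated H2A.Z. The 5 of 23 towards total H2A.Z stand beside 12 of 58 (20.7%) in all of HOXA.

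Several of the HOXA calls towards total H2A.Z were narrow and adjacent. In the authors' deposited table chr7:27225041-27225271 (231 bp) had -0.90 (FDR 0.0054) and its neighbour 91 bp further, chr7:27225363-27225575 (213 bp), had -1.07 (FDR 0.0044). A region with peaks of both lists, chr7:27237985-27238434, had the lowest FDR of the HOXA calls (-0.91, FDR 4.5e-05, authors' deposited table). The rest of the 6 lowest in FDR were chr7:27136551-27136959 (-0.76, FDR 0.0062), chr7:27239908-27240401 (-0.59, FDR 0.0079) and chr7:27252176-27252465 (-0.73, FDR 0.011), all from the authors' deposited table and all with total H2A.Z peaks alone. The longest series in one direction held 6 calls towards total H2A.Z over chr7:27170641-27225575 (54.9 kb).

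The balance changed just past the HOXA window. In the 50 kb beyond its high edge, the end that HOXA13 faces, 6 of 12 regions were higher in ubiquitylated H2A.Z, against 9.39% of all regions, and 0 in total H2A.Z. The same 50 kb on the group 13 side held 1 such call in 8 regions at HOXB and 0 in 3 at HOXC. At HOXD it held no region, but 8 such calls lay inside the window on that side, in its first 30 kb. These 50 kb were counted from window edges, and how far each edge lies from its group 13 gene was not analysed. At the remaining 4 edges there was 1 such call in 5 regions (HOXA), 0 in 12 (HOXB), 3 in 9 (HOXC) and 0 in 2 (HOXD). The 6 regions past the high edge of HOXA lay 3.48 to 11.7 kb from it, within chr7:27283339-27292206. Their log2 fold changes were 0.53 to 0.95 in the authors' deposited table. The next protein-coding gene after HOXA13 in RefSeq order is EVX1, a homeobox gene. This stretch lies outside the rule for members and was singled out after its values were seen.

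HOXC had a compact run of calls towards total H2A.Z. Of its 10 such regions, 7 lay 32 to 64 kb from the start of the window, where there were 18 regions and 1 call towards ubiquitylated H2A.Z. A series of 7 ran over chr12:54357733-54379300 (21.6 kb). Its largest change in the authors' deposited table was at chr12:54359172-54359356, 185 bp wide, with -1.30 (FDR 0.00062), the lowest value in any HOX cluster. The region with the lowest FDR among these 10, chr12:54343389-54344282 (894 bp, peaks of both lists), had -0.64 (FDR 0.00014) in the authors' deposited table. It directly preceded the widest HOX region, chr12:54344378-54346525, which was in neither list. The others of the 6 lowest in FDR were, in the authors' deposited table, chr12:54331907-54332244 (-1.17, FDR 0.00038), chr12:54366940-54367165 (-0.98, FDR 0.0038), chr12:54379023-54379300 (-0.88, FDR 0.0039) and chr12:54360280-54360737 (-0.67, FDR 0.0047).

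The 6 HOXC regions higher in ubiquitylated H2A.Z were scattered over the window, from the HOXC13 end to the HOXC4 end. Those past 2-fold in the authors' deposited table were chr12:54398674-54398976 (1.20, FDR 0.00043), chr12:54355212-54355723 (1.05, FDR 0.00014) and chr12:54330309-54330468 (1.03, FDR 0.025). All 3 held ubiquitylated peaks alone. Smaller changes in the authors' deposited table were at chr12:54440603-54441031 (0.85, FDR 0.012), chr12:54428294-54428750 (0.67, FDR 0.0038) and chr12:54321236-54322273 (0.39, FDR 0.033). The last is 1038 bp wide and holds the HOXC ubiquitylated peak of lowest IDR, so a highly repeatable peak went with a small fold change.

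In HOXB, the longest window, the directions alternated, and the share called (19.5%) was near the 21.5% of all regions. Its 15 calls fell into 10 series of a single direction, none longer than 2. The largest change towards ubiquitylated H2A.Z in any HOX cluster was here, at chr17:46627730-46628099, 370 bp wide, with 1.71 (FDR 1.5e-05) in the authors' deposited table. Others in the authors' deposited table were chr17:46710735-46711036 (1.00, FDR 0.002), chr17:46637176-46637502 (0.83, FDR 0.0051), chr17:46804045-46804483 (0.75, FDR 0.0016), chr17:46824714-46825417 (0.56, FDR 0.0068) and chr17:46607528-46608546 (0.45, FDR 0.015). Of these 6 only the last held peaks of both lists.

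Towards total H2A.Z, all 7 HOXB calls held total peaks alone. The authors' deposited table gave chr17:46805132-46806088, 957 bp wide, -0.66 (FDR 9.5e-05) and chr17:46662548-46662862 -1.17 (FDR 0.00015). Further calls in the authors' deposited table were chr17:46581112-46581481 (-0.90, FDR 0.0005), chr17:46724549-46724947 (-0.74, FDR 0.0034), chr17:46620401-46621103 (-0.59, FDR 0.0039) and chr17:46806765-46806960 (-0.87, FDR 0.011). Between 150 and 200 kb from the start of the window, which includes part of the longest empty stretch, there were 4 regions and no call.

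**Figure D4:**
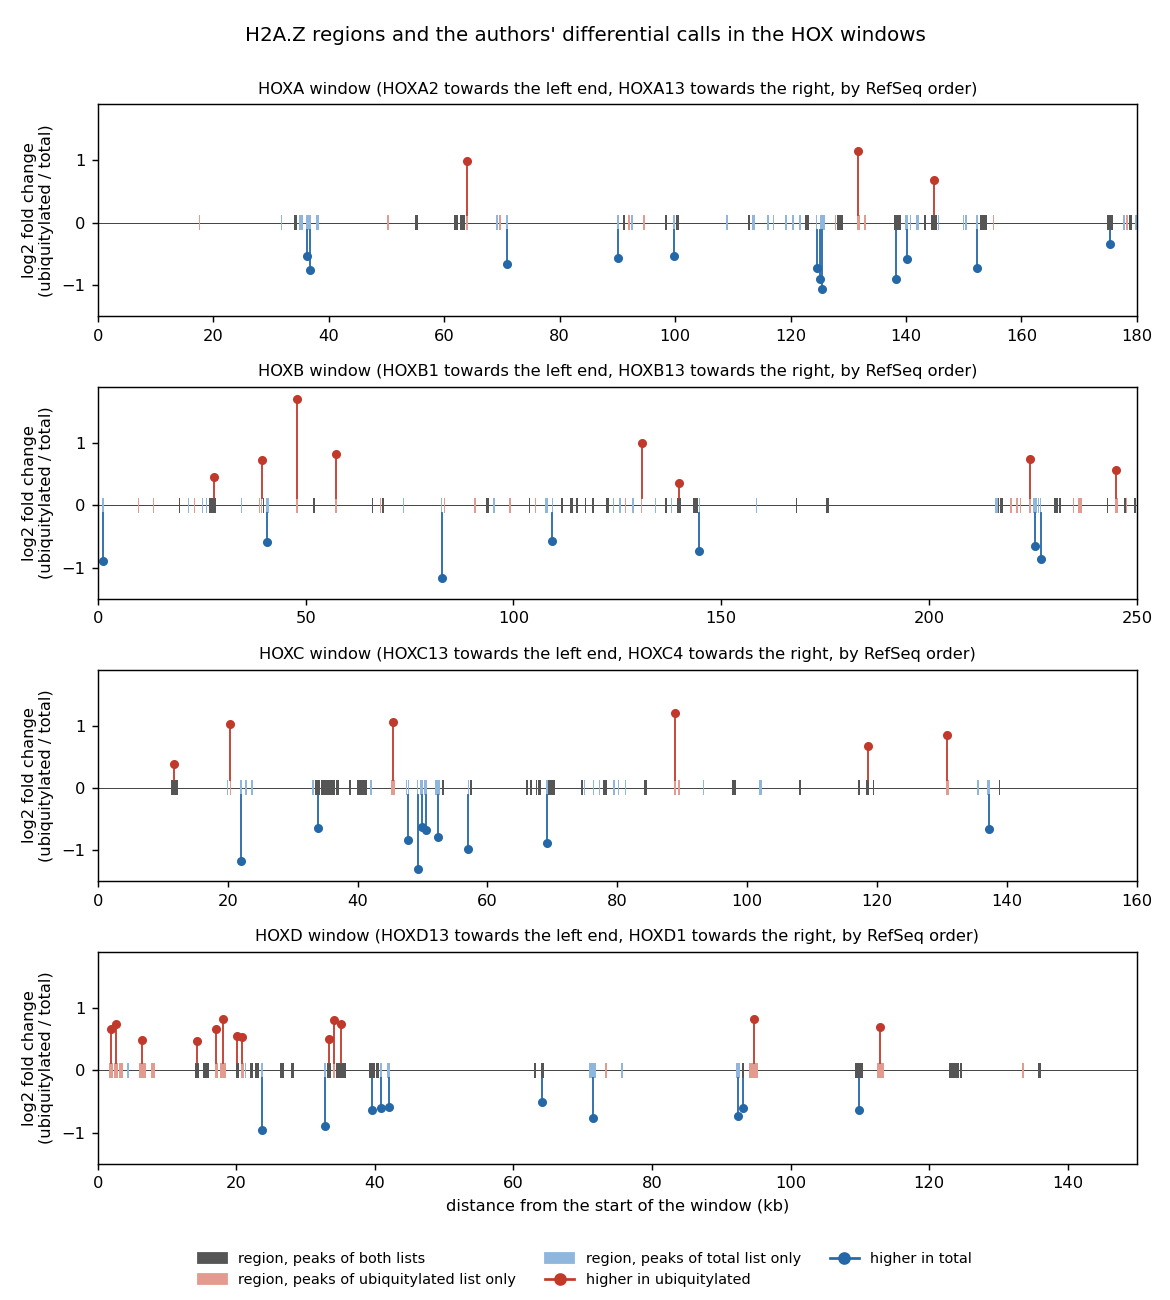
Merged H2A.Z regions in the 4 HOX windows by distance from the start of the window in kb (x axis), with boxes coloured by the peak lists they hold. Stems give the log2 fold value in the authors' deposited table, ubiquitylated over total H2A.Z (y axis), for the 69 called regions. Calls towards ubiquitylated H2A.Z crowd into the first part of HOXD, where the regions themselves are also crowded. In HOXC 7 of the 10 calls towards total H2A.Z lie from 32 to 64 kb, among 18 regions. The stretch from 64 to 96 kb also holds 18 regions, with 1 such call. In HOXB the 2 directions alternate.

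Neighbouring calls within the windows often differed in direction. The nearest called neighbour inside the same window had the same direction for 41 of 69 regions (59.4%, Wilson 47.6 to 70.2%). Over all called regions, with neighbours sought along the whole chromosome, the share was 76.0%. The 2 shares are thus not strictly alike, since a call near a window edge can have a nearer one outside. At the low edge of HOXB, chr17:46581112-46581481 and chr17:46578334-46578598 just outside were both higher in total H2A.Z, and this pair was not counted. The count was 17 of 23 in HOXD, 10 of 15 in HOXA, 9 of 16 in HOXC and 5 of 15 in HOXB. Of 18 pairs of consecutive calls less than 1 kb apart, 14 shared a direction and 4 did not, while 93.5% of 6719 such pairs over all regions shared one. These values were not tested.

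The 4 opposed pairs show how close the directions can lie. In HOXD chr2:176962610-176962958 (-0.89 in the authors' deposited table) was followed after 183 bp by chr2:176963142-176963698 (0.50), and chr2:177023028-177023326 (-0.61) after 731 bp by chr2:177024058-177025344 (0.83). For HOXB the authors' deposited table gave chr17:46804045-46804483 (0.75) and, 648 bp further, chr17:46805132-46806088 (-0.66). The second HOXB pair in the authors' deposited table was chr17:46619210-46619596 (0.72) and, after 804 bp, chr17:46620401-46621103 (-0.59). HOXA and HOXC had no such pair among 3 and 2.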

How the data were processed

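H2A.Z chromatin immunoprecipitation from HEK293T cells was analysed in 2 samples each of ubiquitylated H2A.Z, total H2A.Z and H3. Per the submitters' processing notes, the authors used Bowtie, SAMtools, MACS2, edgeR and the build hg19, in tool versions not given in the sources used here. For each H2A.Z form a single peak list was deposited, filtered at an IDR of 0.05 per the file names. The value per peak was read as this IDR, a q-value-like measure, and whether it is local or global is not stated. A further pair of deposited lists holds the differential regions with an FDR and a fold change, read as log2, the scale usual for the tools named. Neither the test nor how the values were centred is stated. Depth is unknown, and H3 was not compared.

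Starts were raised by 1 to give 1-based positions. Peaks were merged where they overlapped or touched, and all 42574 differential regions matched a merged region. Counts were set beside those over all regions and over flanks of 500 kb, with Wilson intervals, and no test was added to the authors' FDR. Per cluster and direction the text names all calls if 6 or fewer, otherwise the 6 of lowest FDR, with the widest region, the peaks of lowest IDR, the longest empty stretch and the longest series. The clusters and lists were chosen with earlier results of these data known. Merging and membership were tested on simulated intervals. Python 3.11.15 was used with pandas 2.3.3, numpy 2.4.6, matplotlib 3.10.9 and scipy 1.17.1. Alternatives covered the FDR, fold and IDR limits, the windows, the merging and the overlap.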

Additional observations from a re-analysis of the deposited data

How the results depend on the processing

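No paired analysis was possible because values are given per region, with no column for any single library, which is also why leaving out each replicate was not run. Of 80 values under other settings, 55 stayed within 1.5 times the reported count or density, or within the interval of the reported share or median. The other 25 moved outside these limits. With an FDR under 0.01 the 227 HOX regions kept 18 calls towards ubiquitylated and 22 towards total H2A.Z. The shares over all regions were 5.16% and 7.09%. Towards ubiquitylated H2A.Z there were 3 in HOXA, 5 in HOXB, 3 in HOXC and 7 in HOXD, and towards total 5 in HOXA, 5 in HOXB, 7 in HOXC and 5 in HOXD. A limit of 2-fold left 6 calls towards ubiquitylated and 4 towards total H2A.Z, where the shares over all regions were 1.47% and 2.39%. By cluster these were 1, 2, 3 and 0 (HOXA, HOXB, HOXC, HOXD) and 1, 1, 2 and 0. HOXD thus no longer ranked first in either direction at 2-fold, nor towards total H2A.Z at an FDR under 0.01, where HOXC had 7 of 52. Among regions with peaks of both lists there were 9 and 7 calls, and the median width was 466 bp. With peaks under an IDR of 0.01 the share with peaks of both lists was 31.2%, and HOXB had 5 calls towards ubiquitylated H2A.Z. Windows widened by 50 kb raised HOXA to 10 calls towards ubiquitylated and HOXB to 13 towards total H2A.Z, and windows narrowed by 20 kb left HOXD with 7 towards ubiquitylated H2A.Z. The stricter limits and the narrower windows leave fewer regions by construction. Depth and the spread between libraries cannot be judged from the lists.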
